A study of Homo sapiens with 8 samples.

Results

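The genes of 3 bone morphogenetic protein (BMP) ligands and of their feedback targets were followed in HEK293 lines expressing a GFP-tagged RNA-binding protein. The 10 genes are the ligands BMP2, BMP4 and BMP7, the targets ID1, ID2, ID3 and ID4, the inhibitory SMADs SMAD6 and SMAD7, and the secreted antagonist NOG. They were chosen by name, because BMP2 was known from these arrays to have a higher signal in TIA1- than in HuR-expressing cells, and the question was whether the targets have the order of BMP2. All 10 are on the array, measured by 13 probes, of 36337 gene names in all.

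BMP ligands are secreted dimers that bring together type I and type II receptor kinases at the cell surface. The activated receptors phosphorylate SMAD1, SMAD5 and SMAD9, which join SMAD4, enter the nucleus and bind DNA. The ID genes are direct targets of these complexes, and ID proteins hold basic helix-loop-helix factors such as the E proteins away from DNA. SMAD6 and SMAD7 are induced as well and damp the signal inside the cell, while noggin, the product of NOG, binds ligands outside it.

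HEK293 is a human embryonic kidney line. The FT293 lines used here are its Flp-In T-REx derivatives, in which tetracycline switches on a transgene placed at the same site of the genome in every line. The lines express GFP, GFP-HuR, GFP-TIA1 or GFP-TIAR, and RNA was taken after 3 days of tetracycline. TIA1 and TIAR are related RNA-binding proteins, HuR (gene ELAVL1) binds AU-rich elements, and the GFP line carries the tag alone. Each line was measured on 2 one-colour arrays, 8 in all on 1 slide. The labels do not say whether the arrays of a line hold separate cultures, so p-values measure only the spread between these arrays, and every line differs from the others by its transgene and by being a line of its own.

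Signals are given on the log2 scale relative to the 75th percentile of the array, so that 0 is the level of that percentile and each unit is a 2-fold step. They are read within a probe, not between probes. A gene is represented by its probe with the highest mean over the 8 arrays, and a call needed a 2-fold change or more with an adjusted p under 0.05 from limma after Benjamini-Hochberg adjustment over all probes tested. All 13 probes were well above background on all 8 arrays, and so passed the filter in every comparison.

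The GFP 1 array stood apart. It had 86.0% of its probes well above background, against 53.2% to 58.5% on the other arrays, and its local background averaged 83.2 intensity units, where the other arrays had 35.7 to 41.5. Between the GFP arrays 15.8% of probes differed by over 2-fold, against 0.455% to 1.45% within the other lines, so differences from GFP in TIA1 and TIAR cells are given with and without that array. Of the transgenes, TIAL1, the gene of TIAR, read 4.87 and 4.98 on the TIAR arrays and 1.63 to 2.52 on the others by its representative probe. By its other probe it read -4.12 and -3.85 on the TIAR arrays and -4.36 to -3.45 on the others. The representative TIA1 probe read -0.941 and -0.995 in the TIA1 line, -1.77 and -1.36 in the TIAR line, -0.05 and 0.17 in the GFP line and -0.04 and 0.06 in the HuR line. The ELAVL1 probe was not highest in the HuR line, at 0.33 and 0.42, and whether these probes lie in the part of the RNA that a transgene carries is not known here, so they do not check the labels. All 8 markers of HEK293 were well above background in at least 1 line, and 8 of 10 markers of other cell types were, PECAM1 and CD3E being the exceptions. The summed level of these markers of other cell types, in percent of the 75th percentile, was 130.4 to 133.3 on the HuR arrays, 197.8 to 203.8 on the TIA1 arrays and 187.5 to 203.1 on the TIAR arrays. It was 560.7 on GFP 1 and 73.4 on GFP 2, and its part in the results below was not tested.

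The promoters of SMAD6, ID1 and ID4 are shown because these are, beside BMP2, the genes with the 3 largest differences between TIA1 and HuR cells. Each is the 250 bases before the start of the RefSeq gene (GRCh38.p14), 5′ to 3′, with every GTCT or AGAC in capitals, the 2 strands of the SMAD box. SMAD6 lies on the plus strand at chr15:66701986-66702235, ID1 on the plus strand at chr20:31605039-31605288 and ID4 on the plus strand at chr6:19837120-19837369.
SMAD6: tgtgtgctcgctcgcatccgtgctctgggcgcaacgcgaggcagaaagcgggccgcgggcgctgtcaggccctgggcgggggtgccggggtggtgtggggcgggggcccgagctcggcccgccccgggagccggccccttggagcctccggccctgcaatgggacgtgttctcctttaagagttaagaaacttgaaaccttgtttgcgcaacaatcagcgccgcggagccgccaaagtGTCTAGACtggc
ID1: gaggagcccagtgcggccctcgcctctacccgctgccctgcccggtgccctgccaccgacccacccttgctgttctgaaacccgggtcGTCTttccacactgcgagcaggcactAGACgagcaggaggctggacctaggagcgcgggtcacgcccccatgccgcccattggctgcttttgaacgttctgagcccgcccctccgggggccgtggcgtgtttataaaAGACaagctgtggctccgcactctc
ID4: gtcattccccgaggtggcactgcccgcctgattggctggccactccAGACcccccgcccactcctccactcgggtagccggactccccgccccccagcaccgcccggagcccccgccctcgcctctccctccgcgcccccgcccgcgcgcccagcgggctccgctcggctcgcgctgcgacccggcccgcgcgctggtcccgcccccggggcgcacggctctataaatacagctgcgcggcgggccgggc
The SMAD6 sequence holds the palindrome GTCTAGAC, from 12 to 5 bases before the start, a string found in 0.182% of 35116 promoter windows of the same length. A GTCT on either strand is common, in 77.5% of the windows, and occurs 3 times in that of ID1, 2 times in those of ID2, ID3 and SMAD6, and 1 time in that of ID4. The GC-rich SMAD sites GGCGCC (16.4% of all windows) and GCCGNCGC (12.9%) are in none of the windows of the ID genes, SMAD6 or SMAD7. Of the 10 genes, 7 matched the RefSeq table with 11 starts, and BMP2, BMP7 and NOG did not. A match of letters describes the window and shows no binding.

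BMP2 was the gene of the 10 with the widest range between lines. Its probe (NM_001200, chr20:6760810-6760869 of hg19, the build of the array design) read -0.94 and -0.80 in TIA1 cells, -3.44 and -3.28 in TIAR cells, -4.07 and -4.60 in GFP cells and -5.02 and -4.94 in HuR cells. As processed intensities before scaling, these were 670 and 692 in TIA1 cells against 48.3 and 54.2 in HuR cells. They were 129 and 135 in TIAR cells and 96.8 and 55.4 in GFP cells, so outside TIA1 cells BMP2 was dim. The order was TIA1, TIAR, GFP and HuR, with no overlap between neighbouring lines, although the place of GFP above HuR turned with quantile normalization, alone or after normexp, and in the authors' values. In RNA of a whole culture, a change in the number of cells that make an RNA cannot be told apart from a change in its amount per cell. The difference of 4.11 between TIA1 and HuR is what chose these genes and is given as a description.

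BMP4, the other ligand of the BMP2 subgroup, showed no such order. It read -2.55 and -2.36 in TIA1 cells, -2.57 and -2.23 in HuR cells, -2.26 and -1.995 in TIAR cells and -0.64 and -2.22 in GFP cells. The arrays of every neighbouring pair of lines overlapped, and the high GFP mean rested on GFP 1.

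BMP7, a ligand well known from kidney development, ran against BMP2 by its representative probe. That probe (chr20:55745555-55745614) read 2.57 and 2.88 in GFP cells, 2.34 and 2.36 in HuR cells, 1.99 and 2.03 in TIAR cells and 1.38 and 1.46 in TIA1 cells. Here TIA1 cells were lowest and no neighbouring lines overlapped. The BMP7 probe A_23_P154643 (chr20:55743791-55743844) instead read 1.39 and 1.36 in TIA1 cells, above the 0.67 and 0.56 of HuR cells and within the 1.19 and 1.69 of GFP cells. The remaining probe, A_24_P91566 (chr20:55803380-55803439), read between -1.73 and -0.72 on all 8 arrays and overlapped between the HuR, TIAR and TIA1 lines. The TIA1 to HuR difference was -0.93, 0.76 and 0.08 by the 3 probes, so the array gives no single direction for BMP7.

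**Figure D1:**
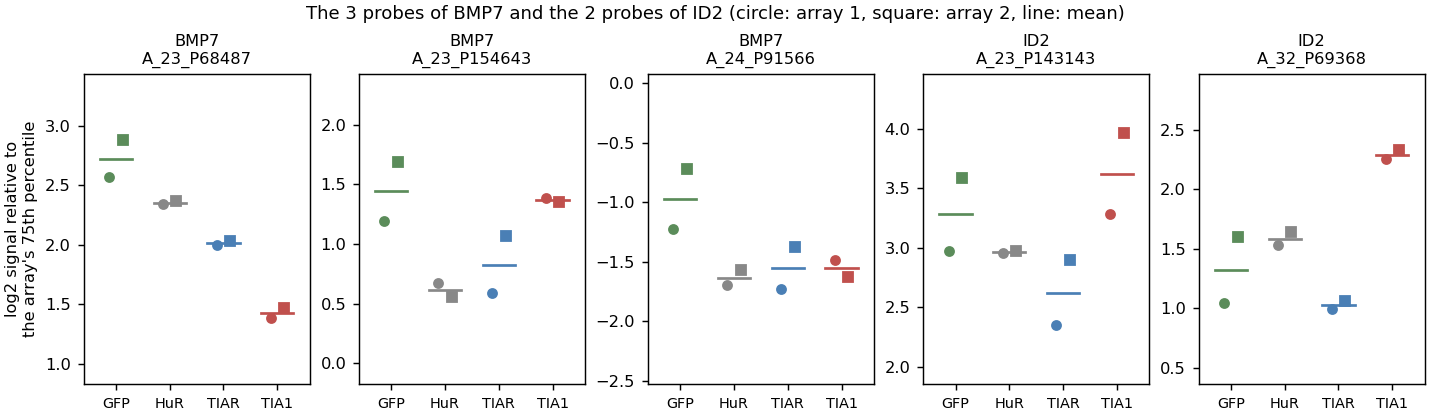
Log2 signal relative to the array's 75th percentile (vertical axis) on the 2 arrays of each line (horizontal axis) for the 3 probes of BMP7 and the 2 probes of ID2; circles are array 1, squares array 2 and lines the mean. The left BMP7 probe is lowest in TIA1 cells, at 1.38 and 1.46, the middle one reads 1.39 and 1.36 there against 0.67 and 0.56 in HuR cells, and the ID2 probe on the right is highest in TIA1 cells.

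The ID genes encode inhibitors of differentiation that lack a DNA-binding region. ID1, a widely used readout of BMP signaling, read 2.04 and 2.31 in TIA1 cells, 1.87 and 1.60 in TIAR cells, 1.15 and 1.57 in GFP cells and 1.08 and 1.08 in HuR cells. This is the order of BMP2 in the same scaling, with no overlap between neighbouring lines. ID4 read 3.20 and 3.05 in TIA1 cells, 2.63 and 2.30 in TIAR cells, 2.30 and 1.71 in GFP cells and 1.77 and 1.80 in HuR cells. Its means had the same order, with TIAR overlapping GFP, and GFP overlapping HuR.

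ID3 was set apart in TIA1 cells alone. It read 2.33 and 2.35 there, 1.60 and 1.77 in TIAR cells, 1.54 and 1.60 in HuR cells and 1.53 and 1.55 in GFP cells. The lines below TIA1 overlapped with their neighbours. ID2 by its representative probe (chr2:8822642-8823030) read 3.28 and 3.96 in TIA1 cells, 2.97 and 3.59 in GFP cells, 2.96 and 2.97 in HuR cells and 2.35 and 2.90 in TIAR cells. TIA1 cells had the highest mean and overlapped GFP cells, while TIAR cells, which stand next to TIA1 for BMP2, were lowest. The other ID2 probe, A_32_P69368 (chr2:8824282-8824341), read 2.25 and 2.33 in TIA1 cells, 1.54 and 1.64 in HuR cells, 1.05 and 1.60 in GFP cells and 1.00 and 1.06 in TIAR cells. By both probes ID2 was lowest in TIAR cells.

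The inhibitory SMADs bind activated receptors and compete with the signaling SMADs. SMAD6, the more selective for BMP signals of the pair, read 0.58 and 0.64 in TIA1 cells, -0.04 and -0.04 in GFP cells, -0.63 and -0.61 in TIAR cells and -0.84 and -0.84 in HuR cells. No lines overlapped, and GFP stood above TIAR, unlike for BMP2. SMAD7, which also answers to TGF-beta, read 1.92 and 1.69 in TIA1 cells, 1.37 and 1.42 in TIAR cells, 0.98 and 0.83 in HuR cells and -0.40 and 1.37 in GFP cells. The GFP arrays differed from each other more than TIA1 cells did from HuR cells.

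NOG was dim, as BMP2 was outside TIA1 cells, and moved in a narrow range. It read -2.97 and -2.89 in HuR cells, -3.05 and -3.01 in TIA1 cells, -3.55 and -3.02 in GFP cells and -3.59 and -3.61 in TIAR cells. TIAR cells were lowest and TIA1 cells stood close to HuR cells.

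**Figure D2:**
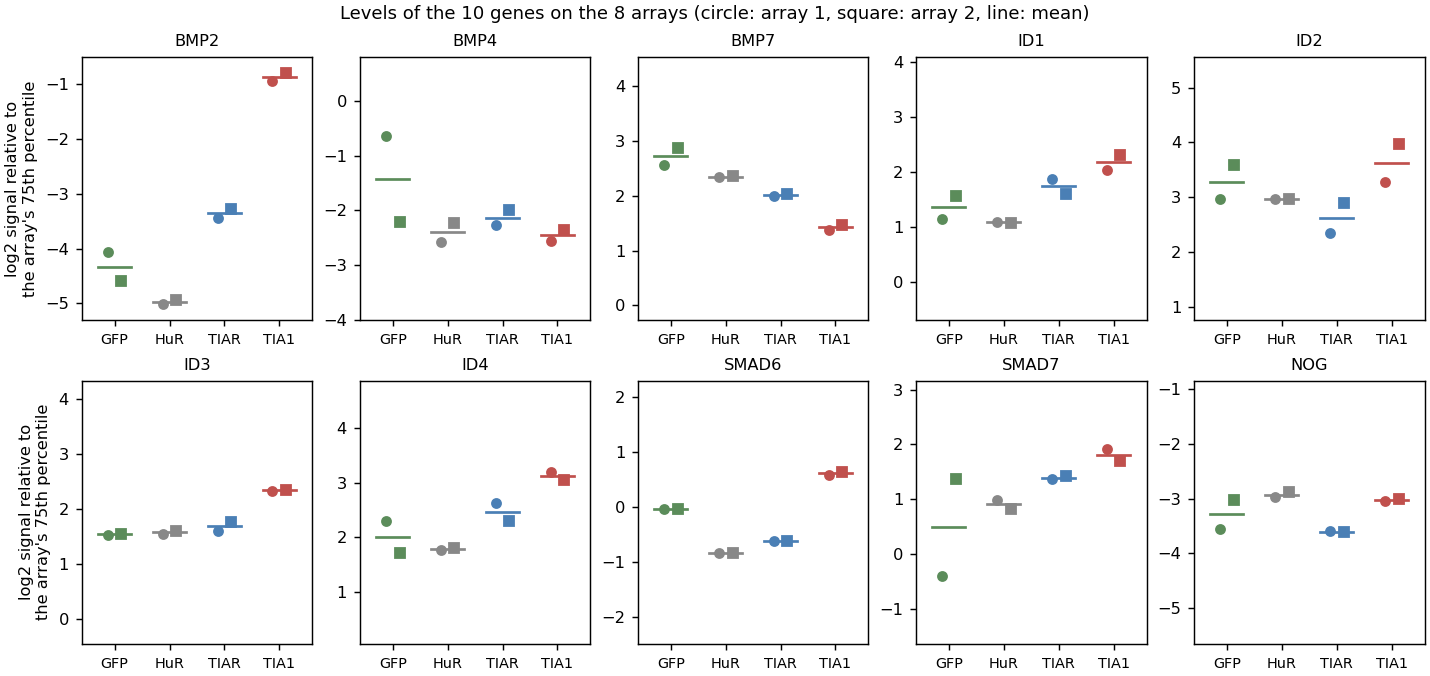
Log2 signal relative to the array's 75th percentile (vertical axis, the same span in every panel) of the 10 genes by their representative probe on the 2 arrays of each line (horizontal axis); circles are array 1, squares array 2 and lines the mean. BMP2 spans 4.11 between the TIA1 and HuR means, and the TIA1 arrays also lie above the other 6 for ID1, ID3, ID4, SMAD6 and SMAD7.

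Side by side with BMP2, all 6 ID and SMAD genes had their highest mean in TIA1 cells, a pattern that 27% of 21839 genes well above background share, and 5 of the 6, all but ID2, had both TIA1 arrays above the other 6, against 12.6% of genes. These counts include the contrast through which the genes were chosen and are given as a description, with nothing read from their excess. Over the 5 other scalings tried, the sign of the TIA1 difference from GFP, HuR and TIAR stayed the same for each of these 6 genes. Below TIA1 the orders parted in the scaling used here. ID1 and ID4 had the whole order of BMP2, and SMAD6 had GFP before TIAR. ID3 and SMAD7 had GFP last, for SMAD7 through GFP 1 alone, and ID2 had TIAR last. The sign between HuR and GFP cells turned for BMP2 under 3 of the 5 other scalings, and for ID3 under all 5. It stayed the same for ID1, ID4 and SMAD7, so which of these has the whole order of BMP2 depends on the scaling. The sizes also differed, with a TIA1 to HuR difference of 4.11 for BMP2, 1.45 for SMAD6, 1.34 for ID4, 1.10 for ID1, 0.90 for SMAD7, 0.77 for ID3 and 0.66 for ID2. The differences of BMP2, SMAD6, ID4 and ID1 were over 2-fold. Across the array, 8.45% of all genes tested were called higher and 4.73% lower in TIA1 than in HuR cells, and no call is read for these genes in that comparison.

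**Figure D3:**
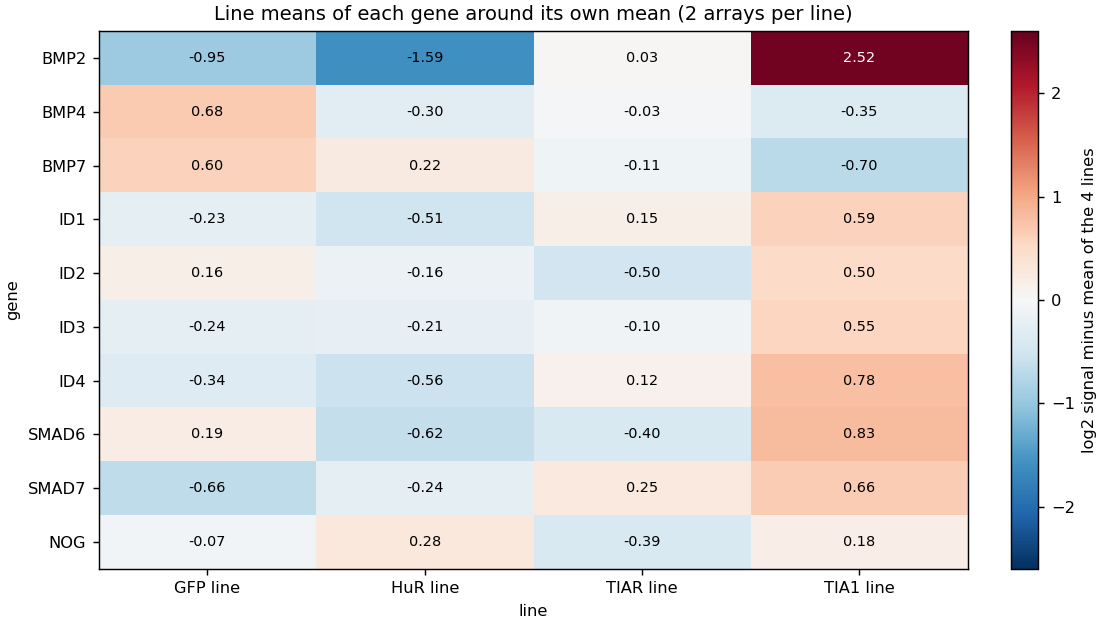
Mean log2 signal of each gene (rows) in each line (columns, 2 arrays each) after subtraction of the mean over the 4 lines; red is above and blue below that mean. BMP2 reaches 2.52 in TIA1 cells, while the ID and SMAD genes lie between 0.50 and 0.83 there and BMP7 at -0.70.

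TIAR and HuR cells were then compared. This comparison leaves out the TIA1 arrays but shares the HuR arrays with the contrast behind the choice of genes. BMP2 was 3.07-fold higher in TIAR cells, a difference of 1.62 on the log2 scale with a standard error of 0.11 and an adjusted p of 0.0049 from limma. It was the only one of the 10 genes called, where 7.38% of all genes tested were called higher and 2.84% lower. Of its targets ID1 differed by 0.66 (standard error 0.13, adjusted p = 0.028), ID4 by 0.68 (0.15, adjusted p = 0.034) and SMAD7 by 0.49 (0.11, adjusted p = 0.036). These differences were larger than the spread between arrays but under 2-fold. At an adjusted p under 0.05 from limma, whatever the size of the change, were 6634 of 21503 genes tested and 5 of the 10. The median absolute log2 fold change of all genes tested was 0.34. SMAD6 differed by 0.22 (adjusted p = 0.14) and ID3 by 0.12 (adjusted p = 0.46), neither past the threshold. ID2 pointed the other way, at -0.34 (adjusted p = 0.27) by its representative probe and at -0.56 (adjusted p = 0.023) by the other. NOG differed by -0.67 (adjusted p = 0.014) and BMP7 by -0.34 (adjusted p = 0.058), where the other BMP7 probes gave 0.21 and 0.08. BMP4 differed by 0.27 (adjusted p = 0.29), and its sign turned with normexp and quantile normalization together and in the authors' values. The BMP2 difference lay between dim signals, at 129 and 135 intensity units in TIAR cells and 48.3 and 54.2 in HuR cells. Its size depended on the processing, with 0.99 after normexp background correction, 0.66 after normexp and quantile normalization and 0.50 in the authors' values, all under 2-fold. Without HuR 1 or HuR 2 it was 1.58 (adjusted p = 0.063) and 1.66 (adjusted p = 0.055), with 0 and 485 genes called in all, against 2197 with both arrays. Of the calls over all genes 72.2% were higher, and 59.9% after quantile normalization.

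TIAR and TIA1 cells were compared directly, since setting each against HuR does not test the difference between them. BMP2 was 5.62-fold lower in TIAR than in TIA1 cells (log2 fold change -2.49, standard error 0.13, adjusted p = 0.014), and SMAD6 was 2.34-fold lower (-1.23, standard error 0.11, adjusted p = 0.025). These 2 of the 10 genes were called, where 1.03% of all genes tested were called lower and 1.33% higher. This contrast shares the TIA1 arrays with the choice of genes. The other ID2 probe was 2.40-fold lower (-1.26, standard error 0.11, adjusted p = 0.025), whereas the representative ID2 probe, with its wider spread, gave -0.999 (standard error 0.31, adjusted p = 0.15). ID4 gave -0.66 (adjusted p = 0.10), ID3 -0.65 (adjusted p = 0.065), ID1 -0.44 (adjusted p = 0.21) and SMAD7 -0.41 (adjusted p = 0.16). None of these 4 passed the threshold, and all 6 ID and SMAD genes had a lower value in TIAR cells. Of all genes tested, 47.8% were higher in TIAR than in TIA1 cells. As the contrast shares the TIA1 arrays with the choice of genes, nothing is read from that count. BMP7 gave 0.59 (adjusted p = 0.068) by its representative probe, and -0.54 and 0.002 by the others. BMP4 gave 0.32 (adjusted p = 0.29) and NOG -0.57 (adjusted p = 0.068). Over the 10 genes the median was -0.61, and over all genes tested it was -0.02. With the replicate number as a block the adjusted p became 0.080 for BMP2 and 0.082 for SMAD6, and without any 1 of the 4 arrays it lay above the threshold for both, between 0.064 and 0.093 for BMP2 and between 0.11 and 0.14 for SMAD6.

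**Figure D4:**
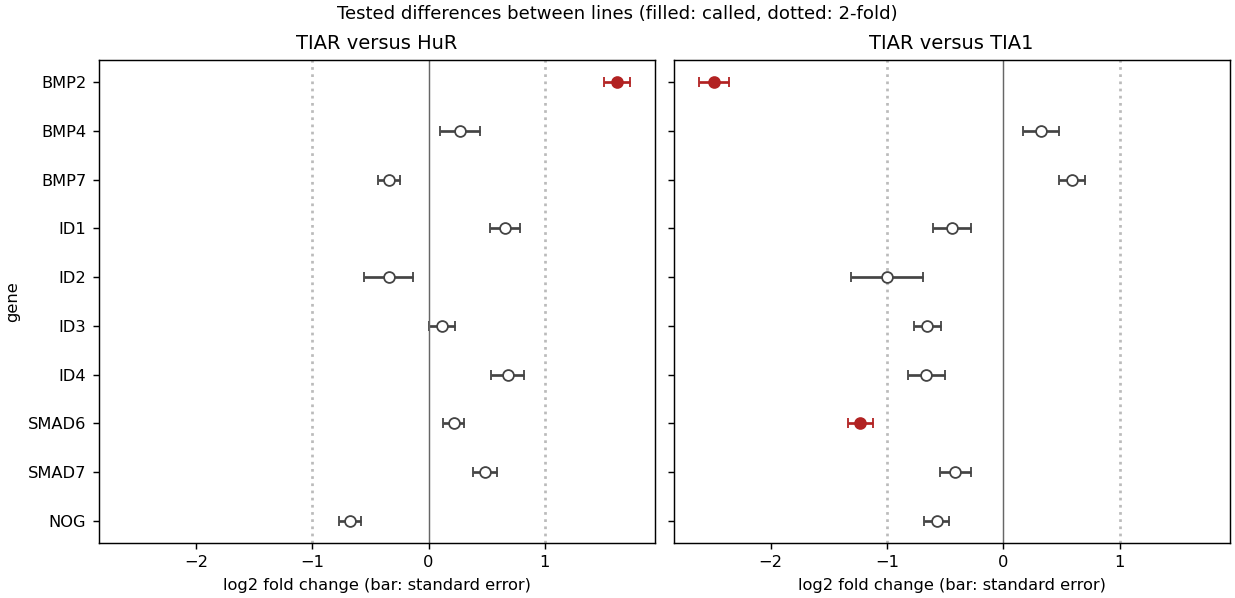
Log2 fold change (horizontal axis) with its standard error (bar) of the 10 genes (vertical axis) for TIAR against HuR cells on the left and TIAR against TIA1 cells on the right, 2 arrays per line; filled points were called and dotted lines mark 2-fold. On the left BMP2 stands at 1.62, and on the right BMP2 and SMAD6 stand at -2.49 and -1.23.

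Against GFP cells no gene of the array was called in any of the 3 comparisons, so that the share called was 0% in each direction. At an unadjusted p under 0.05 limma had 3398 of 21133 genes for TIAR, 4440 of 20710 for TIA1 and 3597 of 21346 for HuR. Of the 10 genes, 3, 6 and 1 were among them. The study called its array genes with limma, and its methods name a paired t-test for 2 groups in general. That t-test was run with arrays paired by replicate number, at a p under 0.05 and a fold change of at least 2. It had 380, 542 and 332 genes (1.80%, 2.62% and 1.56% of those tested) and 0 of the 10, and after Benjamini-Hochberg adjustment 0 genes. With all 8 arrays in a single limma fit, 1256, 1860 and 854 genes were called, or 5.94%, 8.98% and 4.00% of those tested. Of the 10 genes, 0, 3 and 0 were among them. TIAR against GFP is the only comparison that shares no array with the contrast behind the choice of genes. There BMP2 differed by 0.97 (standard error 0.27, adjusted p = 0.24). Without GFP 1 this was 1.24 (adjusted p = 0.048) and passed both thresholds, as 1363 or 6.44% of all genes tested then did, on 1 GFP array that is assumed to vary like the TIAR arrays. None of the other 9 genes passed with or without that array. ID1 differed by 0.38 (adjusted p = 0.50), and by 0.17 without GFP 1. ID4 differed by 0.46 (adjusted p = 0.50), and by 0.75 without it. ID3 differed by 0.14 (adjusted p = 0.71), and by 0.13 without it, with a sign that turned after normexp and quantile normalization together. ID2 had the opposite sign to BMP2, at -0.66 (adjusted p = 0.42) with both arrays and -0.96 without GFP 1, and its other probe gave -0.30 (adjusted p = 0.60). SMAD6 was at -0.59 (adjusted p = 0.27) and -0.58 without GFP 1. The SMAD7 difference of 0.91 (adjusted p = 0.52) rested on GFP 1, without which it was 0.03 (adjusted p = 0.93). BMP7 gave -0.71 (adjusted p = 0.26) and -0.86 without GFP 1, BMP4 gave -0.70 (adjusted p = 0.58) and 0.09, and NOG gave -0.32 (adjusted p = 0.57) and -0.58. With both GFP arrays the other BMP7 probes gave -0.61 and -0.58. The sign of NOG turned under the same 3 scalings as that of BMP2 between HuR and GFP cells, which were quantile normalization, alone or after normexp, and the authors' values.

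In TIA1 against GFP cells BMP2 differed by 3.46 (standard error 0.26, adjusted p = 0.095), ID4 by 1.12 (0.28, adjusted p = 0.16), ID1 by 0.82 (0.25, adjusted p = 0.20), ID3 by 0.80 (0.18, adjusted p = 0.14) and SMAD6 by 0.64 (0.18, adjusted p = 0.18). ID2 gave 0.34 (0.37, adjusted p = 0.62) by its representative probe and 0.97 (0.27, adjusted p = 0.18) by the other. SMAD7 gave 1.32 (0.65, adjusted p = 0.33), a value that rested on GFP 1 and was 0.44 without it. BMP7 differed by -1.30 (0.21, adjusted p = 0.11) by its representative probe. Its other probes gave -0.07 (adjusted p = 0.89) and -0.58 (adjusted p = 0.29), so the size depends on the probe. BMP4 differed by -1.03 (adjusted p = 0.38) and NOG by 0.25 (adjusted p = 0.60). Without GFP 1, BMP2 at 3.73 (adjusted p = 0.018), ID4 at 1.41 (adjusted p = 0.028) and BMP7 at -1.45 (adjusted p = 0.025) passed, of 2380 genes or 11.5% of those tested that did so. Without it ID3 was at 0.79 (adjusted p = 0.055), SMAD6 at 0.65 (adjusted p = 0.077), ID1 at 0.61 (adjusted p = 0.12), BMP4 at -0.24, ID2 at 0.04 and NOG at -0.01. In HuR against GFP cells SMAD6 differed by -0.80 (0.15, adjusted p = 0.19), with the same -0.80 and an adjusted p of 0.025 without GFP 1, still under 2-fold. BMP2 differed there by -0.65 (adjusted p = 0.31), and its sign turned under the scalings named above. Quantile normalization moved the median of all genes from -0.004 to 0.18 for TIAR, from 0.02 to 0.21 for TIA1 and from -0.03 to 0.17 for HuR against GFP.

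The other genes of the pathway were described by lists of ligands, receptors, SMADs, antagonists and targets. Beside their counts, 10.2% of all genes tested were called between TIAR and HuR cells, and 2.36% between TIAR and TIA1 cells. Of 11 other ligands, 7 were tested between TIAR and HuR cells, and GDF6, a ligand of joint and eye development, was higher (1.28, standard error 0.25, adjusted p = 0.029). Of the 7, 3 had a higher value in TIAR cells, and the median of the 7 was -0.28, against 0.06 for all genes. BMP3 gave -0.999 (adjusted p = 0.035) and BMP6 -0.82 (adjusted p = 0.022), both under 2-fold. Of 9 receptors and co-receptors tested, ACVRL1, a type I receptor best known from endothelium, was higher in TIAR than in HuR cells (1.01, standard error 0.12, adjusted p = 0.010), and none was called between TIAR and TIA1 cells. The receptor-activated SMADs and SMAD4 were all tested and 0 of 4 were called in either comparison. Between TIAR and TIA1 cells their log2 fold changes ran from -0.40 to -0.15, none past the threshold.

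Among 13 other secreted antagonists on the array, 9 were tested between TIAR and HuR cells. CHRD, which encodes the ligand-binding chordin, was higher (1.31, standard error 0.09, adjusted p = 0.0051), as was BMPER (1.10, standard error 0.25, adjusted p = 0.038), a chordin relative that can dampen or favour BMP signals, which was well above background on 1 of the 2 HuR arrays. SOSTDC1, an antagonist also acting on WNT signals, was lower (-1.50, standard error 0.16, adjusted p = 0.0088). BMPER was the only antagonist called between TIAR and TIA1 cells, at -1.51 (standard error 0.17, adjusted p = 0.034). Its means were -3.33 in TIA1, -4.84 in TIAR, -4.86 in GFP and -5.94 in HuR cells. TIA1 cells were thus highest and HuR cells lowest, as for BMP2. BMPER is named for its calls on these same arrays, so nothing is read from this likeness. Of genes well above background, 27% had their highest mean in TIA1 cells. Of 6 other intracellular and membrane inhibitors, SKIL, a partner of SMADs that represses transcription, was higher in TIAR than in HuR cells (1.34, standard error 0.13, adjusted p = 0.013), but its spot on HuR 2 was an outlier and left out, so that HuR cells were 1 array and the error rests on the spread of the TIAR arrays and the prior of limma.

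Of 10 other BMP target genes, 0 were called between TIAR and HuR cells, where 10.2% of all genes tested were, with a median of -0.33. Between TIAR and TIA1 cells HEY1, a transcription factor shared with Notch signaling, was lower (-1.08, standard error 0.11, adjusted p = 0.032), and DLX5, a factor of bone formation, gave -0.89 (adjusted p = 0.066). The median of the 10 was -0.23, against -0.02 for all genes. Of the TGF-beta target genes 6 were tested, and LTBP2, which encodes a matrix protein, was higher in TIAR than in HuR cells (1.30, standard error 0.18, adjusted p = 0.013) and well above background on 1 of the 2 HuR arrays. The E proteins TCF3, TCF4 and TCF12, which ID proteins bind, were not called in any tested comparison. Beside these, the markers ALB and DCN were also called higher in TIAR than in HuR cells, and DCN and LUM higher in TIAR than in TIA1 cells. Of the HEK293 markers, LHX1 was higher and NEFL and NEFM lower in TIAR than in HuR cells. Their part in the results was not tested.

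**Figure D5:**
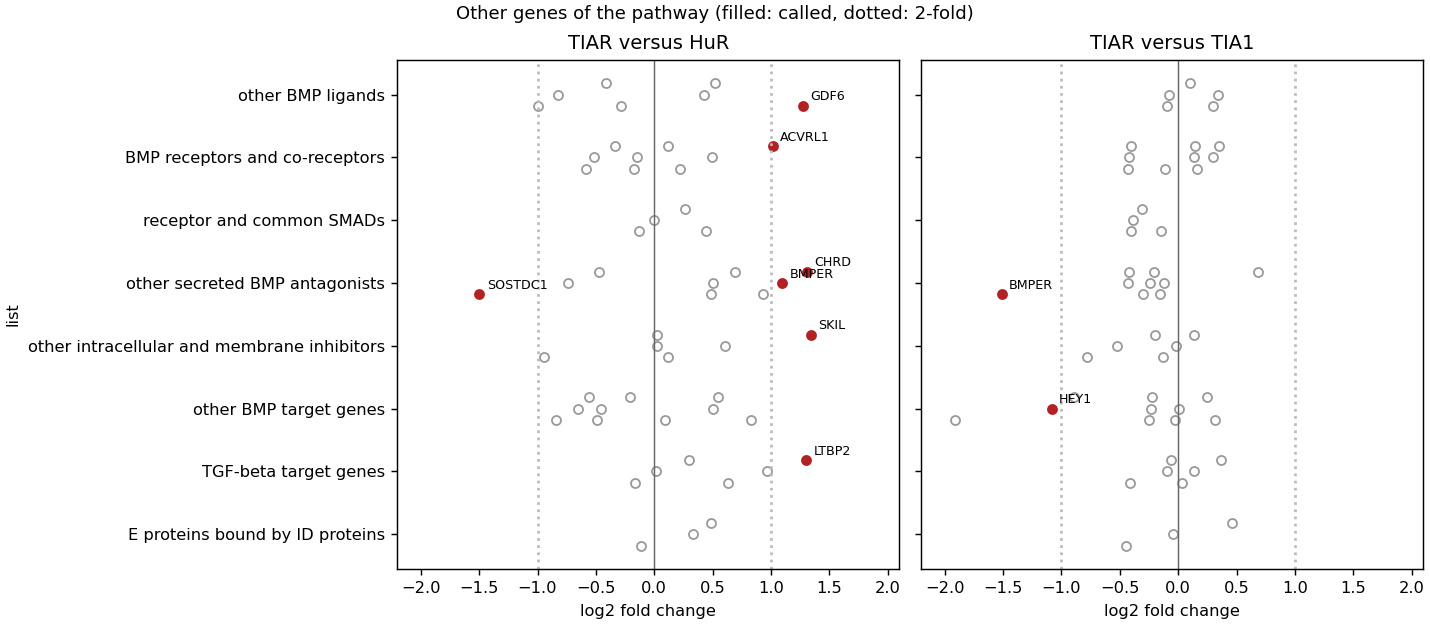
Log2 fold change (horizontal axis) of the tested genes of each list of pathway genes (vertical axis) for TIAR against HuR cells on the left and TIAR against TIA1 cells on the right; filled, named points were called and dotted lines mark 2-fold. GDF6, ACVRL1, CHRD, BMPER, SKIL and LTBP2 are higher and SOSTDC1 lower on the left, and BMPER and HEY1 are lower on the right, where the open point farthest to the left is ATOH8, not well above background on the TIAR arrays.

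The genes whose profile over the 8 arrays was most like that of BMP2 were found by the root mean square difference of the log2 signals, each centred on its own mean. The measure takes in size as well as order, and it includes the gap of 4.11 in BMP2 between TIA1 and HuR cells through which the genes were chosen, so it is a description that supports nothing. Of 21838 genes, the nearest were KISS1R, the kisspeptin receptor, at 0.30, the transcript XLOC_009458 at 0.48, FEZF2, a transcription factor of the forebrain, at 0.50, the transcript XLOC_006277 at 0.52 and the glutamate receptor subunit GRIK3 at 0.53. Of these 5, only GRIK3 was well above background on the arrays of GFP and HuR cells. The other 4 entered through TIA1 cells, and their distances rest in part on signals not above background. The targets stood farther off, from 1.07 for ID4 over 1.16 for SMAD6, 1.19 for ID1, 1.26 for ID3 and 1.30 for SMAD7 to 1.42 for ID2, where a flat profile would be at 1.57. NOG stood at 1.60, BMP4 at 1.79 and BMP7 at 2.02.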

How the data were processed

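RNA of 4 FT293 lines was hybridized to 8 one-colour Agilent human 8x60K arrays (62976 spots, of which 58717 are not controls, for 50599 probes). In the scanner output that the authors deposited, the processed signal is an intensity from which the software subtracted the background, with no scaling from array to array. They also deposited log2 values of the whole series after quantile normalization, done for the TIAR arrays apart from the rest, which served as an alternative. The submitters' processing notes name limma. The files hold 0 columns of other samples. In a source label, 1 array of the TIA1 line is called GFP-TIA2, and its other labels say GFP-TIA1.

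Here, the 75th percentile of the log2 processed signals was subtracted on each array, after which outlier spots were dropped and the spots of a probe averaged. A probe was tested if the software marks it well above background on both arrays of 1 or both lines compared, with limma 3.58.1 (lmFit, eBayes; R 4.3.3) on the 4 arrays of the comparison, after limma had been tested on simulated data. Calls were made at 2-fold or more with an adjusted p under 0.05. TIA1 against HuR is given as a description with no p. Sequences and plots used Python 3.11.15, pandas 2.3.3 and matplotlib 3.10.9. An exact permutation test of 2 against 2 arrays cannot go below p = 0.333, so none was made. No spot was saturated, and the number of arrays limits the precision.

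All 10 genes and every probe of theirs are named, with list genes called in a tested comparison, the SMADs and E proteins as groups, and the 5 genes nearest to BMP2. BMP3, BMP6 and DLX5 are named too, chosen after their values were seen. The genes and lists were chosen with earlier results of these data known. Alternatives were normexp (offset 50), quantile normalization, both, the authors' values, another percentile base, no filter or a stricter filter on dim probes, all 8 arrays in a single fit, a replicate block, any probe of a gene, the methods' paired t-test and leaving out each array. Without a genome of the array design's build, probes were not placed in exons or untranslated regions. The list gene NBL1 had no probe under that name.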

Additional observations from a re-analysis of the deposited data

How the results depend on the processing

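The 5 tested comparisons gave 650 fold changes of single genes under an alternative, most of them of genes not called. Of these, 526 kept their size and side of the thresholds, 92 moved by more than the spread between arrays, 17 lost a call and 15 gained one. Between TIAR and HuR, BMP2 lost its call under 5 alternatives and kept it under 8. Between TIAR and TIA1, BMP2 and SMAD6 each lost theirs under 6 and kept it under 7. Of 60 pairs of gene and comparison, 5 took the other sign under at least 1 scaling, none of them called. For TIAR against HuR, where 1 of the 10 genes was called, 0 were called with normexp, with normexp and quantile normalization, and in the authors' values, and between 0 and 1 when an array was left out. For TIAR against TIA1, with 2 called, 0 were called without a filter on dim probes, 0 with the replicate block and 0 without any 1 array, where 0 to 13 genes of all were called instead of 489. For TIA1 against GFP, with 0 called, 3 were called with all 8 arrays in a single fit and 0 to 4 when an array was left out. These ranges were 0 to 2 for TIAR against GFP and 0 to 2 for HuR against GFP. Without GFP 2 the calls included BMP4 and SMAD7, and rested on GFP 1, where 13024 genes of all were called for TIAR, 14194 for TIA1 and 14881 for HuR. The cause of these changes was not tested.

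Replicate numbers pair no samples by the labels, and the correlation of same-numbered arrays' deviations across 24959 probes ran from -0.09 to 0.18. As a replicate block they kept BMP2 called between TIAR and HuR (adjusted p = 0.017 from limma), and changed the count of the 10 genes called in no comparison but TIAR against TIA1.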
